A study of Mus musculus with 22 samples.

Results

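*Snrpn*, *Gm38393* and *Snrpb* are 3 of the 55406 genes listed in both count tables, and they were taken by gene name. *Snrpn* encodes SmN, *Snrpb* encodes SmB, and *Gm38393* is the name that the annotation gives to a joint transcript of the *Snurf*-*Snrpn* unit. Whole brains were taken on postnatal day 0, and polyadenylated RNA was sequenced without strand information. PWS-IC pups were heterozygous for a deletion of the imprinting centre of the Prader-Willi interval on the paternal chromosome (labelled HET PWS-ICdel), and 4 libraries from 2 litters were compared with 5 libraries of wild-type (WT) littermates. PWS-cr pups carried a paternal deletion limited to *Snord116* and most of *Ipw*, and 6 libraries from 4 litters were compared with 5 libraries of WT littermates from 3 of them. All 4 PWS-IC pups were labelled female, against 1 of their 5 WT littermates, while the PWS-cr series held both sexes in each genotype. Every library is of a whole brain, so that fewer cells of a type and less RNA per cell cannot be told apart. Nothing in the labels says how the deletion lies relative to the exons of *Snrpn*, so remaining *Snrpn* counts cannot be assigned to an allele.

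Sm proteins form the ring that sits on the small nuclear RNAs of the spliceosome, the machine that removes introns. SmB occupies its place in the ring in most tissues, and SmN takes the same place in neurons. In the mouse, *Snrpn* is transcribed from the paternal chromosome only, under the control of the imprinting centre, and its maternal copy is silent and methylated at the promoter. The *Snurf* reading frame lies upstream of the SmN frame on the same RNA, and transcription that starts here runs on through the *Snord116* and *Snord115* clusters.

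On mm10, *Snrpn* (ENSMUSG00000102252) lies on the minus strand at chr7:59982495-60140219, *Gm38393* (ENSMUSG00000000948) on the same strand at chr7:59974149-60005064, and *Snrpb* (ENSMUSG00000027404) on the minus strand at chr2:130171414-130179403. *Snrpn* has 2159 exonic bases, of which 1422 belong to no other gene. It shares 589 with *Gm38393* and 148 with *Gm18908*, a processed pseudogene annotated on the plus strand. *Gm38393* has 5216 exonic bases, of which 4463 are its own, and all 4463 lie downstream of the end of *Snrpn*. It holds 2 small nucleolar RNA genes, *Snord107* and *Snord64*. The *Snurf* frame has 216 exonic bases, each of them also exonic in both *Snrpn* and *Gm38393*, and *Snurf* was listed at 0 counts in all 20 libraries. Reads that belong to *Gm38393* alone therefore report the downstream end of the unit and not the upstream frame. The map of annotated exons shows this arrangement. The 1976 exonic bases of *Snrpb* overlap no other gene.

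**Figure D1:**
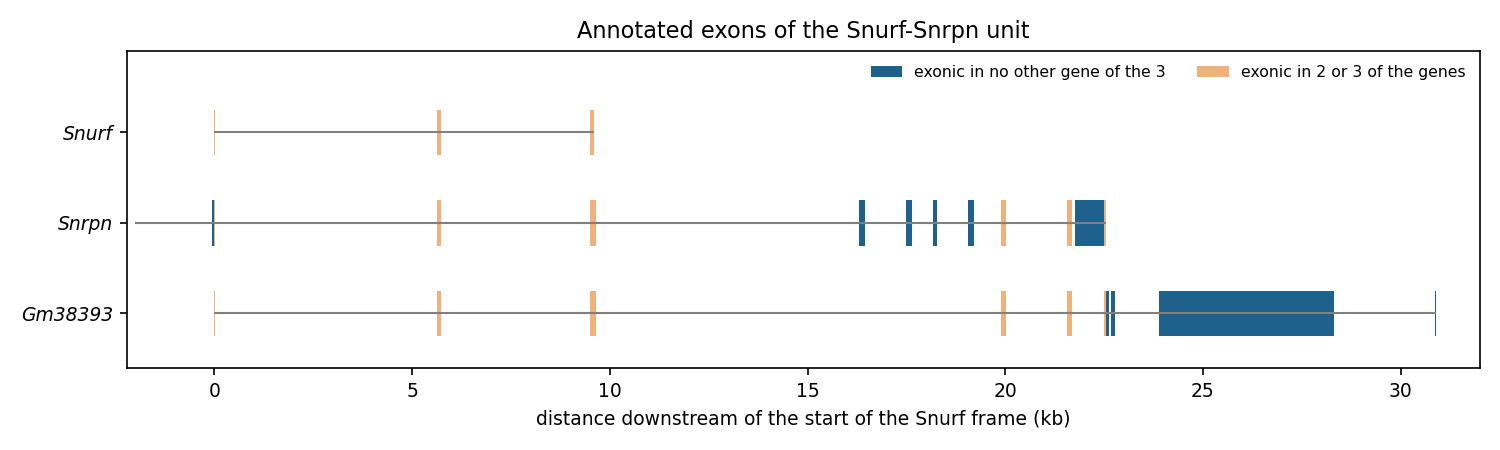
Exons of *Snurf*, *Snrpn* and *Gm38393* in GENCODE M21, against distance in kb from the start of the *Snurf* frame, with blue for bases in no other gene of the 3 and orange for bases in 2 or 3 of them. All 216 bases of *Snurf* are orange, and the blue bases of *Gm38393* lie beyond the last exon of *Snrpn*; upstream exons of *Snrpn* are off the left edge.

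RefSeq lists 4 transcription starts for *Snrpn* and none for *Gm38393* or *Snrpb* in the promoter table used. A pair of these 300-base windows (GRCm38.p6, 250 bases before to 50 after the start) is shown because both starts make RNA of the same gene from sequences that differ. The first belongs to the start that lies just outside the upstream end of the annotated gene, at chr7:60140176-60140475, and the second to the start just before the *Snurf* frame, at chr7:60005150-60005449, both on the minus strand. Capitals mark CGCATGCG, a run that reads the same on both strands:
upstream start: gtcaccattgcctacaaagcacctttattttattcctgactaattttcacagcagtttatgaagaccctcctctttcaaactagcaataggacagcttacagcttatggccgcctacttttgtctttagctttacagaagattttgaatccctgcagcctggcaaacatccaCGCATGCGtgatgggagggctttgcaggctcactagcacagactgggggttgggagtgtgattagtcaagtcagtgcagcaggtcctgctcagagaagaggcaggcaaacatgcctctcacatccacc
start before the *Snurf* frame: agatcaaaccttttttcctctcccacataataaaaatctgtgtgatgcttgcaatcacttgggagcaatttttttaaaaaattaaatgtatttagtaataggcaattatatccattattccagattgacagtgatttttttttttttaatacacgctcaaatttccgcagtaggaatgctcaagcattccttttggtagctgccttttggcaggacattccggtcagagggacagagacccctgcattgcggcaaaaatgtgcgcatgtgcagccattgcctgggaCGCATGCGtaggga
These windows were identical at 56.0% of bases after alignment. CGCATGCG was in 4 of the 4 *Snrpn* windows, against 1.87% of all 32851 promoter windows of that length (615 windows). No rule for picking this run was set beforehand, so the contrast is not a test. The 3 upstream windows were 83.0 to 84.7% identical to each other, so they are not separate examples of the match. The match is a description of the letters, and binding was not tested.

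Reads of *Snrpn* and *Snrpb* could be confused only where their sequences match. The coding sequences of the first listed GENCODE M21 transcript of *Snrpn* (720 bases) and of *Snrpb* (693 bases) were identical at 80.5% of aligned bases. Their first 120 coding bases are shown because they encode the end of each protein that holds the Sm fold, with the 17 differing bases in capitals:
*Snrpn*: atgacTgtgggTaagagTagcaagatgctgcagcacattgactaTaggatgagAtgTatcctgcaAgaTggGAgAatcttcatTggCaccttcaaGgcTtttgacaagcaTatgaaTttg
*Snrpb*: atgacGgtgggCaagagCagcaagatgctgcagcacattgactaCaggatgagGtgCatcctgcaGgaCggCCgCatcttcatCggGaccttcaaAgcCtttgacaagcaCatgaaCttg
Of these 17 differences, 16 were at the third position of a codon. The longest run that the full transcripts share is 32 bases:
shared run: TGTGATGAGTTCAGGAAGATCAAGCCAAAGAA
No word of 50 bases occurred in both transcripts.

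The labels were checked before the genes were compared. Total counts ranged from 45798407 to 62103143 per library. *Xist*, the RNA that coats the inactive X chromosome, had 64 counts in the library labelled 1_3_IC (PWS-IC, female), which had 7568 counts summed over the Y-linked *Ddx3y*, *Eif2s3y*, *Kdm5d* and *Uty*. In the library labelled 1_7_IC (WT, male) these values were 124574 and 18. The other 18 libraries matched their labelled sex. The rule that set these 2 libraries apart used sex-linked genes alone, though earlier results of these data were known. Each PWS-IC result is given with these 2 libraries as labelled (9 libraries) and without them (7 libraries, 3 PWS-IC and 4 WT). The library labelled 1_3_IC also stood apart, and not in Sm genes alone. Across genes, its counts differed more from each of the other 3 PWS-IC libraries than those differed from each other. In counts scaled to library size (CPM), the 6 other core Sm genes summed to 394 in it. They summed to 223 to 271 CPM in the other 3 PWS-IC libraries and 221 to 232 CPM in the 5 WT libraries. The 13 genes of Sm-like (LSm) proteins summed to 792 CPM in it, against 575 to 636 CPM in the other libraries of that series. The 13 genes of Sm ring assembly summed to 692 CPM, against 505 to 567 CPM. The 18 genes of proteins particular to single snRNPs, at 2236 CPM, lay within the WT range. Of 6 lists of cell or region markers, the 14 neuronal ones summed to 9607 to 11067 CPM in the PWS-IC libraries and to 9715 to 10333 CPM in their WT littermates, and none of them was at 0. In the library labelled 1_3_IC, some neuronal genes lay above the range of the 4 WT libraries and others below it. The sum does not show these opposite shifts. Over the 7 libraries, the sums of 7 blood genes were higher in PWS-IC, at 448 to 683 CPM against 141 to 331 CPM in WT, and 1 of the 7, *Hbb-bt*, was called higher. The 7 oligodendrocyte lineage genes summed to 272 to 314 CPM in PWS-IC and 295 to 431 CPM in WT, with 6 of 7 estimates negative (median −0.27 on the log2 scale, none called). With labelled sex in the model *Sox10* (−0.91) and *Mbp* (−0.91) of these were called lower. The 10 radial glia and astrocyte genes summed to 1302 to 1523 CPM in PWS-IC and 1364 to 1542 CPM in WT, with 5 estimates positive and 5 negative, 5 of the 10 at an unadjusted p under 0.05 (lowest estimate −0.76) and none called by edgeR. The 12 genes of dividing progenitors summed to 288 to 348 CPM in PWS-IC and 299 to 370 CPM in WT, and the 8 of caudal hindbrain and spinal cord to 13.2 to 62.8 CPM in PWS-IC and 1.03 to 56.1 CPM in WT. In PWS-cr these 8 caudal genes summed to 0.479 to 69.5 CPM, against 0.592 to 22.3 CPM in WT. Of their estimates 6 were positive and 2 negative (median 2.52), 4 had an unadjusted p under 0.05 and none was called by edgeR. With no filter on low counts *Hoxb7* and *Hoxb8* were called higher in PWS-cr. In PWS-IC, with all 9 libraries and no such filter, *Hoxb5* (0.92), *Hoxa5* (0.83) and *Hoxb6* (0.86) were called higher. Over the 7 libraries 5 of the 8 caudal genes were tested, with 2 estimates positive and 3 negative. All 12 progenitor estimates were negative in PWS-cr (median −0.08, none called), and medians of the other marker lists were 0.02 to 0.09. The part of these cells and regions in the results was not tested.

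*Snrpn* was nearly lost in 3 of the 4 libraries labelled PWS-IC. It had 425, 255 and 421 counts in libraries 1_10_IC, 4_4_IC and 4_5_IC, and 18116 counts in the library labelled 1_3_IC. Its WT littermates had 16556, 13536, 15046 and 12281 counts in libraries 1_1_IC, 1_5_IC, 4_3_IC and 4_6_IC, and the library labelled 1_7_IC had 343. Each of the 2 libraries that go against their labelled sex thus lay on the side of the other genotype. Scaled for library size, *Snrpn* was at 8.10, 4.90 and 6.73 CPM in the 3 PWS-IC libraries, against 287, 253, 254 and 242 CPM in the 4 WT libraries, so the groups lay far apart. The remaining level was 2.54% ± 0.621 (SD, n = 3) of the WT mean, with 1.89% the lowest and 3.13% the highest. With the 7 libraries, *Snrpn* fell by 5.27 on the log2 scale (SE 0.121, edgeR adjusted p = 9.58e-10), and the change was between −5.41 and −5.13 when any 1 of the 7 was left out.

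With all 9 libraries as labelled the fold change of *Snrpn* was −1.88 on the log2 scale (SE 1.60, edgeR adjusted p = 0.662), and it did not pass the test. edgeR called 0 of 22367 genes in that fit (0%) and DESeq2 called 1, while the unadjusted p from edgeR was under 0.05 for 1840 genes (8.23%). With the 7 libraries it called 53 of 21913 genes (0.242%), 35 of them lower in PWS-IC (0.16%). *Snrpn* and *Gm38393* were among those 35 and *Snrpb* was not called.

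**Figure D2:**
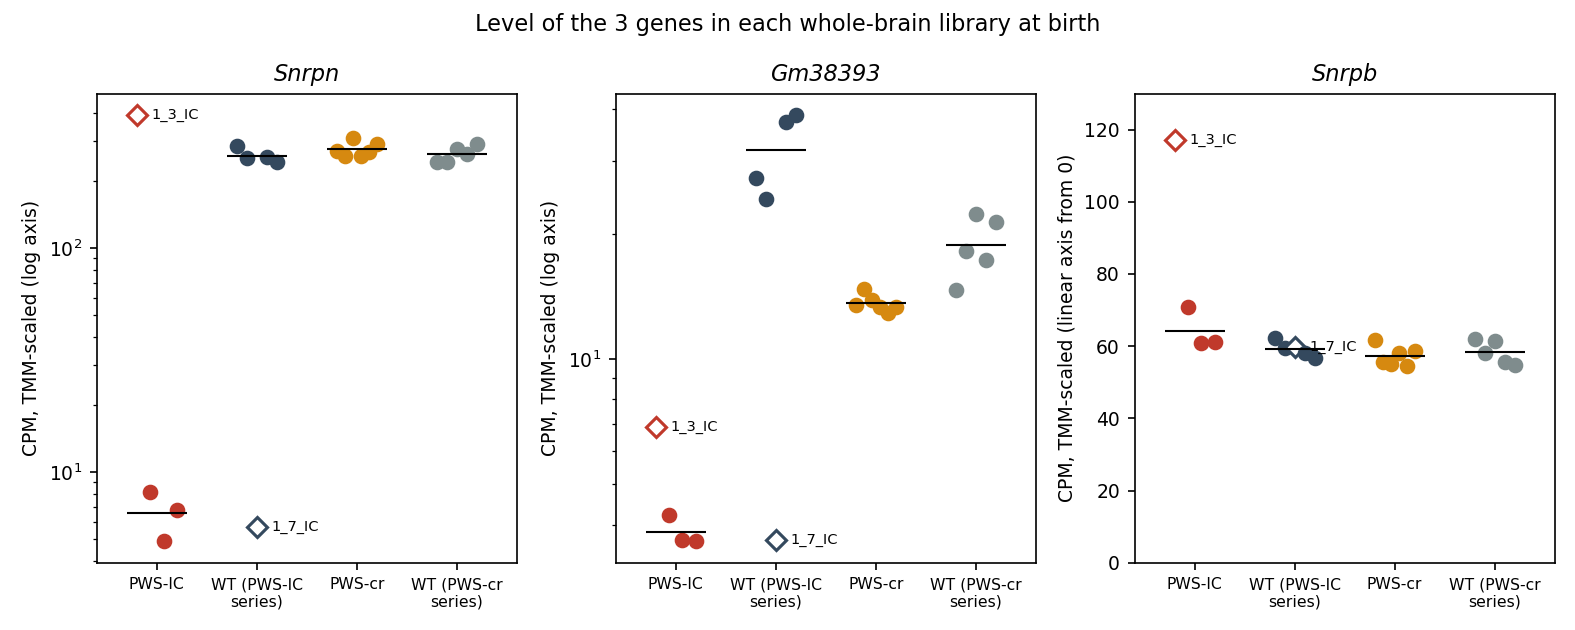
CPM (TMM-scaled) of each gene in every library, with *Snrpn* and *Gm38393* on log axes and *Snrpb* on a linear axis from 0; points are libraries, open diamonds the 2 that go against their labelled sex, and lines the mean of the filled points. *Snrpn* was at 4.90 to 8.10 CPM in 3 PWS-IC libraries and at 242 to 287 CPM in 4 WT libraries, while *Snrpb* lay between 54.5 and 70.8 CPM in every library but 1_3_IC.

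*Gm38393*, the downstream end of the same unit, fell less far. It had 221, 191 and 228 counts in PWS-IC libraries 1_10_IC, 4_4_IC and 4_5_IC, and 316 in the library labelled 1_3_IC. The WT libraries 1_1_IC, 1_5_IC, 4_3_IC and 4_6_IC had 1572, 1298, 2201 and 1960 counts, and the library labelled 1_7_IC had 222. At 6.87 CPM in the library labelled 1_3_IC, *Gm38393* was below the 4 WT libraries, although *Snrpn* in it was above them. Its mean was 3.84 ± 0.322 CPM in PWS-IC (SD, n = 3) and 31.8 ± 7.15 CPM in WT (SD, n = 4), with no overlap. No overlap in that direction was seen for 4.85% of all genes tested. What remained was 12.1% ± 1.01 of the WT mean (SD, n = 3), against the 2.54% of *Snrpn*. With the 7 libraries *Gm38393* fell by 3.08 on the log2 scale (SE 0.146, edgeR adjusted p = 4.13e-07). With 9 libraries the change was −2.47 (SE 0.548, unadjusted p = 0.00104, edgeR adjusted p = 0.565).

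The balance between the ends of the unit differed between libraries. *Gm38393* had 52.0, 74.9 and 54.2 counts for every 100 counts of *Snrpn* in PWS-IC libraries 1_10_IC, 4_4_IC and 4_5_IC. In the 4 WT libraries it had 9.50 and 9.59 in litter 1 and 14.6 and 16.0 in litter 4, too few libraries per litter to compare the litters. The library labelled 1_7_IC had 64.7 and the one labelled 1_3_IC 1.74, the lowest of all 20. These ratios are of counts and carry no correction for length.

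*Snrpb*, the paralogue that most tissues use, showed at most a small difference. It had 3712, 3176 and 3825 counts in PWS-IC libraries 1_10_IC, 4_4_IC and 4_5_IC, and 5394 in the library labelled 1_3_IC. The WT libraries 1_1_IC, 1_5_IC, 4_3_IC and 4_6_IC had 3588, 3176, 3442 and 2878 counts, and the library labelled 1_7_IC had 3613. On the CPM scale the 3 PWS-IC libraries were at 70.8, 61.0 and 61.2, against 56.8 to 62.1 CPM in the 4 WT libraries, and the groups overlapped. The library labelled 1_3_IC, at 117 CPM, was above all others. With the 7 libraries the difference was 0.14 on the log2 scale (95% interval 0.01 to 0.27, SE 0.0575, unadjusted p = 0.0342, edgeR adjusted p = 0.358), where 12.8% of all genes had an unadjusted p under 0.05. Without library 1_10_IC it was 0.08 (edgeR adjusted p = 0.706) and with labelled sex in the model the interval was −0.08 to 0.34. With 9 libraries it was 0.38 (SE 0.149, edgeR adjusted p = 0.565).

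**Figure D3:**
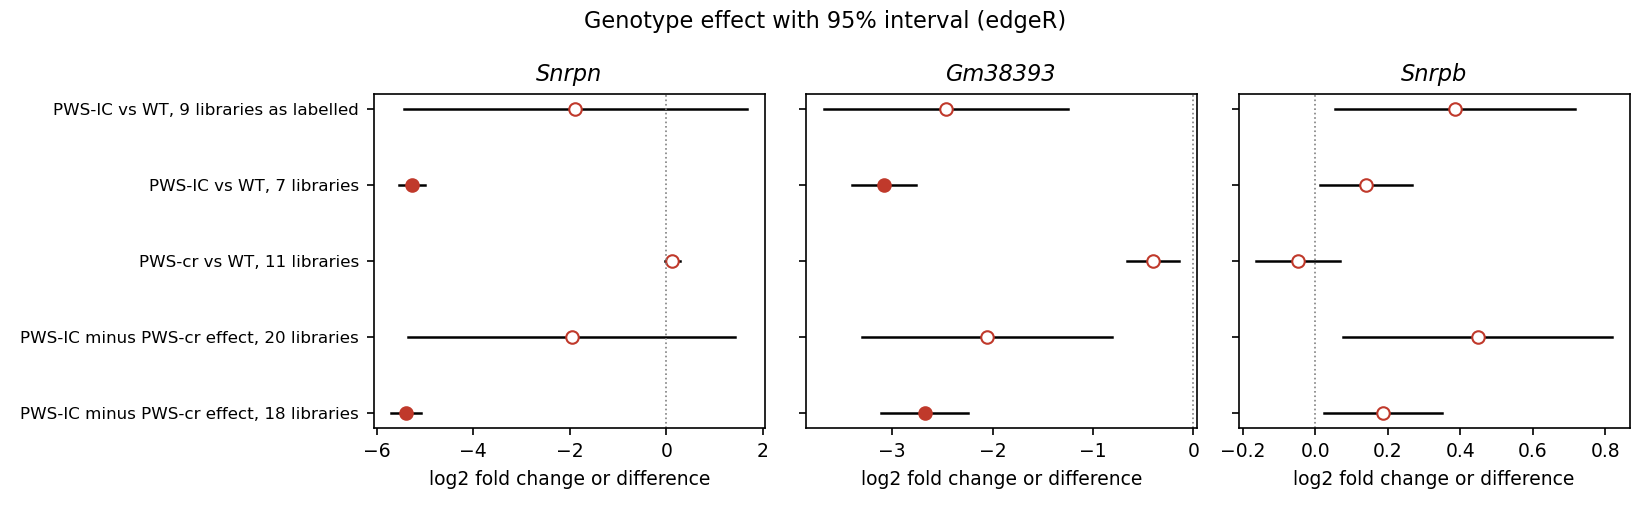
Log2 fold change of each gene, or the difference between the effects of both models, with 95% intervals from edgeR; filled points passed an adjusted p of 0.05. *Snrpn* and *Gm38393* passed with the 7 PWS-IC series libraries, at −5.27 and −3.08, and *Snrpb* passed in none of the 5 fits shown.

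No difference in *Snrpn* or *Snrpb* was detected in PWS-cr pups. *Snrpn* was at 258, 270 and 310 CPM (lowest, median and highest of 6 libraries), against 241, 243, 264, 277 and 292 CPM in WT libraries, and the ranges overlapped. The change was 0.12 on the log2 scale (95% interval −0.04 to 0.27, SE 0.0699, edgeR adjusted p = 1.00). *Snrpb* was at 54.5, 56.8 and 61.8 CPM in PWS-cr (lowest, median and highest), against 54.9, 55.6, 58.1, 61.4 and 61.9 CPM in WT, with a change of −0.05 (95% interval −0.16 to 0.07). edgeR called 3 of 22172 genes in this comparison (0.0135%), and none of them is among the 3 genes described.

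*Gm38393* had lower values in PWS-cr than in WT littermates, and the difference did not pass the test. It was at 12.9, 13.4 and 14.7 CPM in PWS-cr (lowest, median and highest of 6 libraries), against 14.7, 17.3, 18.2, 21.4 and 22.3 CPM in WT. The ranges met only between PWS-cr library 1_2_Cr and WT library 1_3_Cr, both of litter 1. In FPKM, where TMM scaling plays no part, they did not overlap, at 2.51 to 2.82 in PWS-cr against 2.86 to 4.32 in WT, which was so in that direction for 0.14% of genes. In litter 1 the PWS-cr libraries had 619, 735 and 766 counts (13.5, 14.7 and 13.9 CPM), against 787 counts (14.7 CPM) in WT, so little difference was seen there. In litter 3 the PWS-cr library had 705 counts, against 983 and 1251 in WT, and in litter 4 it had 687, against 936 and 1034 in WT. Litter 2 held no WT library with a column. The change was −0.40 on the log2 scale (95% interval −0.66 to −0.14, unadjusted p = 0.00664, edgeR adjusted p = 1.00), where 2.07% of all genes had an unadjusted p under 0.05. It was negative in all 11 fits that left out 1 library, between −0.59 and −0.28, and did not pass the test in any. *Gm38393* had 4.47 to 5.72 counts for every 100 of *Snrpn* in PWS-cr, against 6.02 to 8.07 in WT. *Snord116*, which the deletion removes, lies downstream of both genes.

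The order of the groups was not the same for both ends of the unit. *Snrpn* averaged 6.58 ± 1.61 CPM in 3 PWS-IC libraries (SD, n = 3) and 259 ± 19.2 CPM in 4 WT libraries (SD, n = 4), and 276 ± 20.5 CPM in PWS-cr (SD, n = 6) and 264 ± 21.8 CPM in WT littermates (SD, n = 5). PWS-cr and both WT groups thus differed by less than the spread within them. *Gm38393* averaged 13.6 ± 0.630 CPM in PWS-cr (SD, n = 6) and 18.8 ± 3.12 CPM in WT littermates (SD, n = 5). Its order was WT of the PWS-IC series, WT of the PWS-cr series, PWS-cr and PWS-IC, and its WT libraries were at 24.3 to 38.7 CPM in the PWS-IC series and 14.7 to 22.3 CPM in the PWS-cr series. The WT groups of the series did not overlap for *Gm38393* and did for *Snrpn*. How many of all genes also separated these WT groups was not counted, and the paper did not pool them because they differed. Colony, litter and series cannot be told apart between them, and the difference was not tested.

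Both models were set against each other by the difference of their genotype effects. With the 7 libraries of the PWS-IC series and all 11 of the PWS-cr series, the effect on *Snrpn* was more negative in PWS-IC by −5.39 on the log2 scale (SE 0.144, edgeR adjusted p = 5.40e-13). For *Gm38393* the difference was −2.68 (SE 0.203, edgeR adjusted p = 8.67e-07). For *Snrpb* it was 0.19 (95% interval 0.02 to 0.35, edgeR adjusted p = 0.571). This fit called 43 of 23574 genes (0.182%). With all 20 libraries it called 0 of 23771 (0%), with 1123 genes (4.72%) at an unadjusted p under 0.05, and the differences were −1.96, −2.05 and 0.45.

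Since SmN and SmB fill the same place in the ring, their RNA was also set side by side per length, in FPKM. *Snrpn* was at 3.01 ± 0.664 FPKM in 3 PWS-IC libraries (SD, n = 3) and 120 ± 7.92 FPKM in 4 WT libraries (SD, n = 4). *Snrpb* was at 32.2 ± 1.82 FPKM in PWS-IC and 29.8 ± 0.963 FPKM in WT. In WT brains *Snrpn* was thus the more abundant of the pair, at 3.90 to 4.22 times *Snrpb* in those 4 libraries, and in PWS-IC it was at 0.0735 to 0.105 times. The lengths behind these FPKM include 737 bases that *Snrpn* shares with other genes, so the size of the ratio depends on that choice. *Snrpb* in FPKM did not overlap between these groups (31.1 to 34.3 in PWS-IC, 28.6 to 30.9 in WT), as was so in that direction for 4.54% of genes, but it overlapped in CPM.

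*Snrpn* made up 9.48, 6.85 and 9.15% of the summed FPKM of both genes in PWS-IC libraries 1_10_IC, 4_4_IC and 4_5_IC, against 80.9, 79.6, 80.0 and 79.6% in the WT libraries 1_1_IC, 1_5_IC, 4_3_IC and 4_6_IC. The sum itself was 35.2 ± 2.37 FPKM in PWS-IC (SD, n = 3) and 149 ± 8.82 FPKM in WT (SD, n = 4). Mean *Snrpn* differed by −117 FPKM and mean *Snrpb* by 2.35 FPKM, which is 2.02% of that size. Exact two-sided permutation tests gave p = 0.0571 for the share and for the sum, the smallest that 3 against 4 libraries allow (0.114 adjusted over 4 tests). With 9 libraries as labelled, the share differed by −40.4 percentage points (exact permutation p = 0.0635, adjusted p = 0.254), and the sum by −43.1 FPKM (exact permutation p = 0.333, adjusted p = 0.407).

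**Figure D4:**
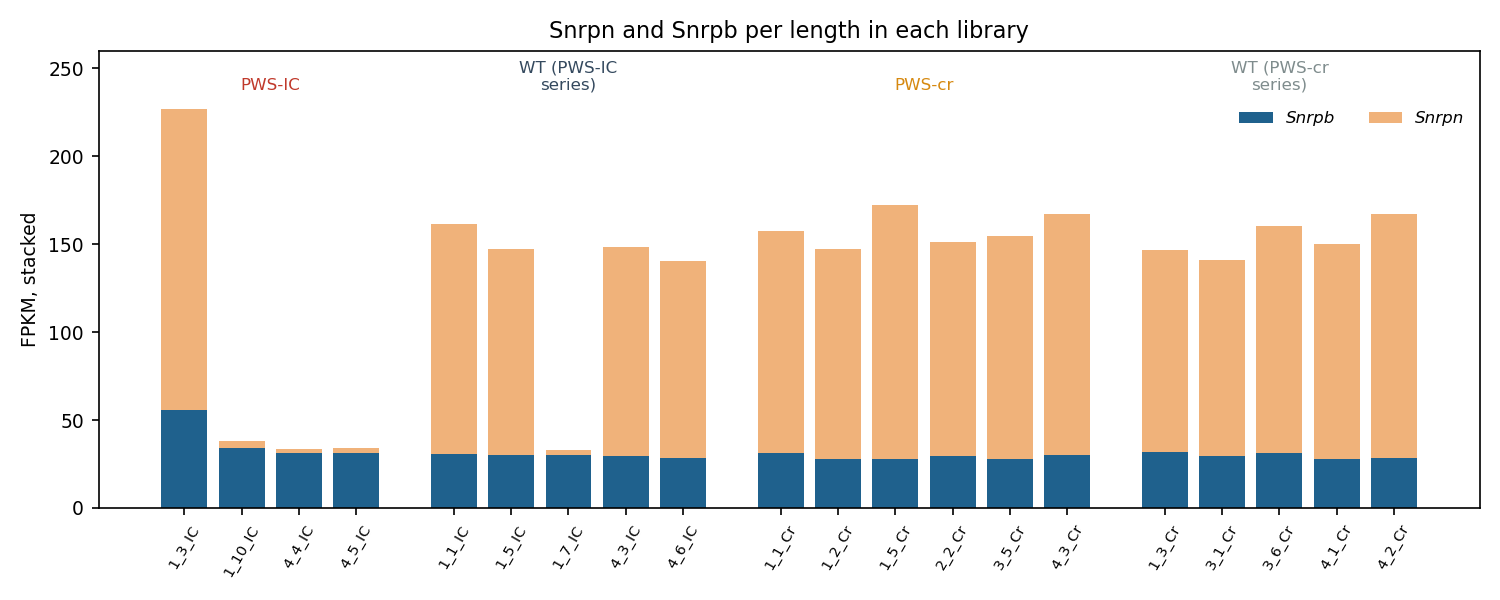
Stacked FPKM of *Snrpb* (blue) and *Snrpn* (orange) in each of the 20 libraries, by labelled group. The 3 low PWS-IC libraries summed to 33.4 to 37.9 FPKM and the library labelled 1_7_IC to 32.9, against 140 to 161 FPKM in the other 4 WT libraries of that series.

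No difference in the pair was detected in PWS-cr. *Snrpn* made up 81.5% ± 1.36 of the sum in PWS-cr (SD, n = 6) and 80.4% ± 1.84 in WT (SD, n = 5), a difference of 1.03 percentage points (exact permutation p = 0.312, two-sided, adjusted p = 0.407). The sum was 158 ± 9.64 FPKM in PWS-cr and 153 ± 10.6 FPKM in WT (exact permutation p = 0.407, two-sided, adjusted p = 0.407). With lengths of only those exonic bases that belong to no other gene, the mean share was 87.0% in PWS-cr and 86.2% in WT.

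The other proteins of the Sm ring come from 6 genes, and none was called in the 9-library, 7-library or PWS-cr fit. With the 7 libraries, 5 of 6 had a higher and 1 a lower estimate in PWS-IC, with a median of 0.14 on the log2 scale beside 0.00 over all genes tested. *Snrpe*, the most abundant of them per length (27.8 FPKM over 20 libraries), was at 49.3, 37.0 and 43.0 CPM in PWS-IC libraries 1_10_IC, 4_4_IC and 4_5_IC, against 35.6, 35.3, 35.0 and 36.5 CPM in WT libraries 1_1_IC, 1_5_IC, 4_3_IC and 4_6_IC. Its change was 0.29 (SE 0.0824, unadjusted p = 0.00529, edgeR adjusted p = 0.253). *Snrpd1*, the next most abundant (25.1 FPKM), differed by 0.16 (SE 0.0655, edgeR adjusted p = 0.359) and *Snrpd3* by 0.15 (SE 0.0569, edgeR adjusted p = 0.340). The estimate of *Snrpb*, 0.14, lies at the median of these genes. With 9 libraries 6 of 6 estimates were positive, with a median of 0.31, and in PWS-cr the median was 0.02.

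**Figure D5:**
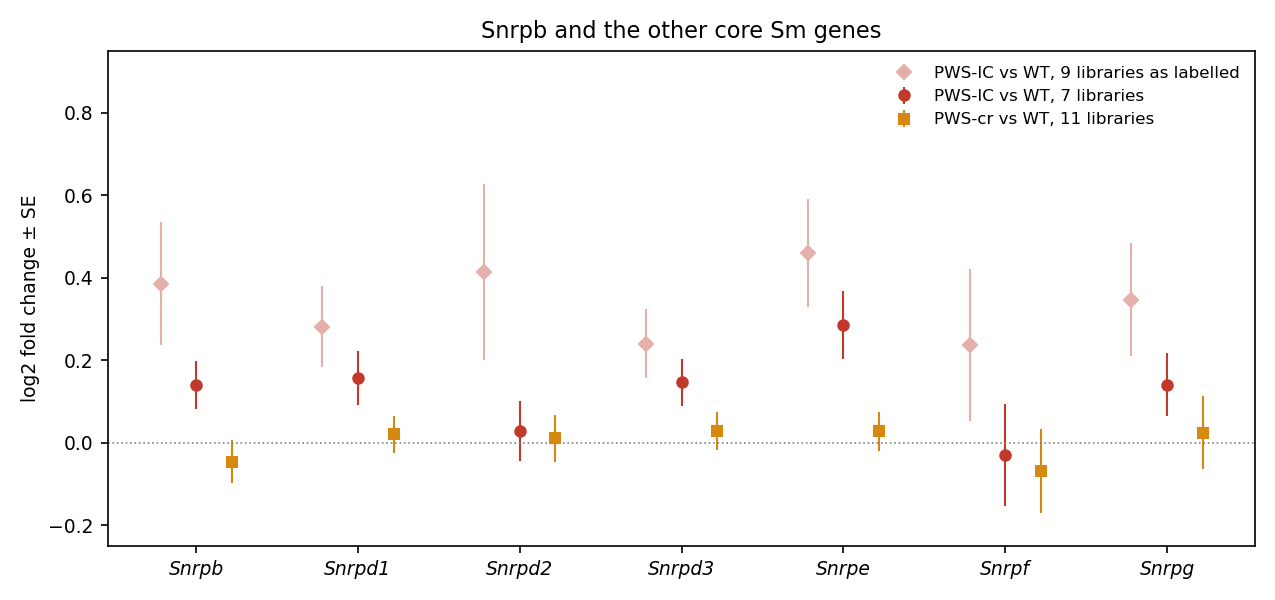
Log2 fold change with its SE (edgeR) of *Snrpb* and the 6 other core Sm genes, as diamonds for 9 and circles for 7 libraries of the PWS-IC series and squares for PWS-cr. Circles of *Snrpb*, *Snrpd1*, *Snrpd3* and *Snrpg* lie between 0.13 and 0.16, and no point passed an adjusted p of 0.05.

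Lists of genes around the ring were counted in the same fits. Of 18 genes of proteins particular to single snRNPs, 17 had a higher and 1 a lower estimate in PWS-IC with 7 libraries, with a median of 0.09. *Snrpb2*, which encodes the U2 protein B″, was at 38.6, 32.1 and 37.7 CPM in PWS-IC libraries 1_10_IC, 4_4_IC and 4_5_IC, against 32.1 to 34.4 CPM in the 4 WT libraries (0.13, SE 0.0773, edgeR adjusted p = 0.486). Of 13 genes of Sm ring assembly, which load the ring with the help of the SMN complex, 9 were positive and 4 negative (median 0.03). Of 13 LSm genes, which encode the related Sm-like proteins, 10 were positive and 3 negative (median 0.06). With all 9 libraries the lowest p in these lists were those of *Snrpa1* (0.25, SE 0.0817), which encodes the U2 protein A′, of *Smn1* (0.28, SE 0.126), the central protein of the SMN complex, and of *Lsm5* (0.37, SE 0.145). No member of these lists was called with 7 or 9 libraries or in PWS-cr, where medians were between −0.01 and 0.02 over the 4 lists.

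The genes with the profile nearest to *Snrpn* were found over all 20 libraries by the root mean square difference of centred log2 CPM, among 21134 other genes. They were *Gm44560* (0.33), *Gm44562* (0.38), *Mkrn3* (0.40), *Gm44559* (0.46), *Ndn* (0.46) and *A230006K03Rik* (0.49), and all 6 lie on chromosome 7, between 693 and 2277 kb from *Snrpn*. *Mkrn3*, which encodes a ring-finger protein, averaged 0.881 CPM in 3 PWS-IC libraries and 20.5 CPM in 4 WT libraries. *Ndn*, which encodes necdin, averaged 15.6 CPM in PWS-IC and 508 CPM in WT, and 440 CPM in PWS-cr and 278 CPM in its WT littermates. *Gm38393* was 22nd in this order (1.45) and *Snrpb* 12004th (2.21).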

How the data were processed

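The 3 genes and all lists were chosen with earlier results of these data known. Per the labels, libraries were made with the KAPA mRNA HyperPrep kit from RNA of high integrity. The authors aligned reads to mm10 with STAR, counted them with featureCounts, tested with DESeq2 and quantified isoforms with kallisto. STAR was run with its per-gene counting on and gave multimapping reads in random order. Versions of STAR and featureCounts, and the featureCounts options, are not given in the sources used here. The authors dropped 1 library per series, so 20 of 22 labelled libraries have a column. The deposited counts are raw. The deposited FPKM and TPM values scale them by gene length, and the FPKM lengths of the 3 genes equal their exonic bases in GENCODE M21 to within 1 base. A further 20 columns of counts divided by size factors, and the authors' DESeq2 columns (means, log2 fold changes, errors, p values), were not used.

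Counts were fitted with edgeR 4.0.16 (R 4.3.3; TMM, quasi-likelihood) on genes that reached 10 counts in 4 or more libraries, with litter and genotype as terms, per series and, for the difference of effects, over both. p values were adjusted by Benjamini-Hochberg over all genes tested, and a gene was called at an adjusted p under 0.05. The procedure was tested on simulated data. CPM come from TMM over 20 libraries. Shares and sums in FPKM were compared by exact permutation (scipy), without regard to litter. Alternatives were DESeq2 1.42.0, RLE scaling, other filters, no litter, labelled sex, TPM, *Gm38393* added to *Snrpn*, each library left out, and the 7 libraries. The 7-library fits with DESeq2, RLE, sex or a library left out, and lengths of unshared bases, were added after seeing the data. Named genes were the 3 members, *Snrpb2* and *Snurf*, list members that were called or had the lowest p, the 6 nearest profiles, the 2 most abundant core Sm genes, and the sex check genes. No 2 libraries of a group agreed within sampling noise. Pups are separate animals. Low counts limit the precision of *Snrpn* and *Gm38393* in PWS-IC.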

Additional observations from a re-analysis of the deposited data

Results flagged for a closer look

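Among 20 groups of values examined (3 genes in CPM and the *Snrpn* share and sum in FPKM, in 4 groups), 6 held a library far from the others of its group, where chance gives about 1 in 20. These 6 fell on the same 2 libraries, in measures that all include *Snrpn*. They are therefore not separate, and their number cannot be weighed against chance. The library labelled 1_3_IC was at 394 CPM of *Snrpn*, at a share of 75.5% and at a sum of 227 FPKM, in each case far above the other 3 libraries labelled PWS-IC. The library labelled 1_7_IC was at 5.68 CPM of *Snrpn*, at a share of 7.99% and at a sum of 32.9 FPKM, in each case far below the other 4 WT libraries. Both go against their labelled sex.

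The genotype effect differed between the models by the test of the difference, with the 7 libraries, for *Snrpn* (−5.39 on the log2 scale, PWS-IC minus PWS-cr) and *Gm38393* (−2.68).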

How the results depend on the processing

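As labelled, *Snrpn* and *Gm38393* did not pass the test in PWS-IC, with changes of −1.88 and −2.47. Without the 2 libraries both passed, at −5.27 and −3.08, and so did their differences from PWS-cr, at −5.39 and −2.68. With no filter on low counts, *Snrpn* (−1.84), *Gm38393* (−2.44) and *Snrpb* (0.41, edgeR adjusted p = 0.0184) passed in PWS-IC, as did *Snrpd2* (0.44), *Snrpe* (0.49) and *Lsm4* (0.48), and the differences of *Snrpn* (−1.98) and *Gm38393* (−2.07) from PWS-cr passed too; the cause was not tested. Genes called in PWS-IC were 0 as labelled, 1 with DESeq2, 471 with no filter and 53 without the 2 libraries, and of that last fit 174 with sex in the model and 227 with DESeq2. In PWS-cr 3 were called, 7 with DESeq2 and 10 with no filter.

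Leaving out 1 library at a time, PWS-IC changes were between −5.02 and −0.92 for *Snrpn*, between −2.84 and −2.25 for *Gm38393* (−2.80, edgeR adjusted p = 0.0215, without the library labelled 1_7_IC) and between 0.15 and 0.49 for *Snrpb*, and 0 to 1 genes were called. Differences from PWS-cr were between −5.13 and −1.03, −2.45 and −1.84 (*Gm38393* passed without 1_7_IC, at −2.39, edgeR adjusted p = 0.00371), and 0.19 and 0.53. The share differed by −57.1 to −34.2 percentage points (exact permutation p = 0.0286 without 1_7_IC, at −54.8) and the sum by −91.0 to −26.5 FPKM. From the 7 libraries, 28 to 55 genes were called, with 28 without 4_3_IC and 31 without 4_6_IC; the cause was not tested. No other alternative changed a call or direction of the 3 genes, share or sum. No paired analysis was possible because replicates carry no pairing beyond litter. Litter is a term in the main fits of counts, while the permutation tests of share and sum took no account of it.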
